A study of Mus musculus with 9 samples.

Results

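The 8 genes described here encode the proteins that build, load and switch on mouse MHC class II: the invariant chain Cd74, the classical chains H2-Aa, H2-Ab1 and H2-Eb1, the loading factor genes H2-DMa, H2-DMb1 and H2-DMb2, and the transactivator Ciita. They were taken by symbol from a table of RNA-seq counts for 53679 genes, and each symbol matched 1 gene identifier. The set was selected on measured values too, since the fitted differences of these genes between the groups were known when it was drawn up. The cells were CD8+ T cells of 3 C57BL/6 mice, called 715, 725 and 728, activated in culture for 3 days. Each mouse gave untreated Tc0 cells, Tc0 cells with coenzyme A (CoA) and untreated Tc22 cells, so there were 3 libraries per group and 9 in all. CoA is the acyl carrier that cells make from pantothenate. Tc0 and Tc22 are the names the labels give to 2 CD8+ T cell populations; by common usage Tc22 cells are CD8+ T cells that make interleukin 22. The labels name no transgene or allele and give neither age nor sex, and the sources used here do not give the culture conditions that separate Tc0 from Tc22. The libraries were made from cultured populations in bulk, so fewer cells of a type and less RNA per cell cannot be told apart.

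MHC class II molecules are pairs of an alpha and a beta chain that show peptides from the endosomes to CD4+ T cells. The invariant chain occupies the groove of a new pair and carries it to the endosomes, where proteases trim it to a short peptide called CLIP and H2-DM exchanges that peptide for others. Dendritic cells, macrophages and B cells carry class II at high levels. Mouse T cells are usually described as low in class II, whereas activated human T cells display it. Ciita does not bind DNA itself. It is recruited to the X and Y boxes of class II promoters by the RFX and NF-Y complexes and is the factor whose presence usually decides whether the genes are on. C57BL/6 mice carry no working alpha chain gene for the E molecule, so the H2-Eb1 chain has no partner there. The locus of that missing chain, H2-Ea-ps, had 0 counts in all 9 libraries, which allows up to 3 counts in each and covers counting error only.

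The promoters of 5 of the 8 genes were in the RefSeq table of sequences from 250 bases before to 50 bases after a gene's start (build GRCm38.p6). These were H2-Aa, H2-Eb1, H2-DMa, H2-DMb1 and H2-DMb2. Cd74, H2-Ab1 and Ciita had no entry. The stretches below are shown because they hold letters that some of the members share and that the selection of the genes did not use. Capitals mark AACNGATGATGCT, letters of the X box region, and TGATTGG, letters of the Y box, which holds the CCAAT motif of NF-Y on the other strand. The X letters are the longest stretch that H2-Eb1 and H2-DMb1 share, with N where H2-DMb2 differs. Both sets were thus taken from these promoters after they were read, and both strands were searched. Each sequence runs 5′ to 3′ on the strand of its gene.

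H2-Eb1: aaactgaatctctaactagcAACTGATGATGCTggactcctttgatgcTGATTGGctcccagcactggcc
H2-DMb1: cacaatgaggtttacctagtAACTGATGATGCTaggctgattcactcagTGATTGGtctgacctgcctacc
H2-DMb2: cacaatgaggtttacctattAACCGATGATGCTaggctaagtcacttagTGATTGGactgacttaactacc
H2-Aa: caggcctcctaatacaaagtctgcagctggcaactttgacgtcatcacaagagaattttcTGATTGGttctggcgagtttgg

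The H2-Eb1 stretch lies at chr17:34305758-34305827 on the plus strand, H2-DMb1 at chr17:34153079-34153149 on the plus strand, H2-DMb2 at chr17:34145108-34145178 on the plus strand and H2-Aa at chr17:34287852-34287933 on the minus strand. The X letters began 89 bases before the RefSeq start in H2-Eb1, 92 in H2-DMb1 and 121 in H2-DMb2. The gene positions given further below come from GENCODE, which begins H2-DMb1 at 34153072 and H2-DMb2 at 34143307. By that annotation both H2-DMb stretches lie inside their genes. The Y letters followed after 15 bases in H2-Eb1 and after 16 bases in both H2-DMb genes. H2-Aa held the Y letters 50 bases before its start and not these X letters, and neither of the 2 H2-DMa windows held either set. Among 32851 promoters in the table, 5 (0.0152%) held the X letters and 2568 (7.82%) the Y letters. Both sets lay within 60 bases on 1 strand in 3 promoters (0.00913%), those of H2-Eb1, H2-DMb1 and H2-DMb2, from which the X letters came. A match describes the sequence and is not a measured site.

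The libraries held 21841034 to 36254631 counts. Levels are given as CPM, each gene's counts scaled to a fixed library size, after edgeR's TMM scaling of library sizes, as mean ± SD over the 3 mice. Levels of different genes are compared as CPM per kb of the gene's annotated exons. A difference is the log2 fold change ± SE from edgeR's quasi-likelihood fit with mouse as a block, and a gene is called where its Benjamini-Hochberg adjusted p over 15348 tested genes is under 0.05. Since the genes were selected on these differences, their differences and calls are descriptions and carry no p-value. The gene lists set beside them were also chosen with earlier results of these data known. Adjusted p-values printed for genes of those lists are thus descriptions too, not independent tests. All 8 members passed the filter on low counts. The Tc0 library of mouse 728 stood apart: the chi-square of its counts against the other 2 Tc0 libraries was 141 and 239 per degree of freedom, while other pairs within a group gave 24.6 to 77.8. Results without it are given for the number of calls in Tc22 against Tc0 and for named genes whose call ended without it.

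Cd74 (ENSMUSG00000024610, chromosome 18, 60803848 to 60812652, plus strand, GRCm38) encodes the invariant chain and had the widest difference between groups of the 8 genes. In Tc0 cells of mice 715, 725 and 728 it stood at 4.34, 3.22 and 4.68 CPM (4.08 ± 0.766, n = 3), on 69 to 170 counts. With CoA it stood at 25.7, 27.7 and 21.0 CPM (24.8 ± 3.46, n = 3). In Tc22 cells it stood at 10.5, 16.8 and 14.5 CPM (13.9 ± 3.18, n = 3). The 3 groups did not overlap, and the order Tc0, Tc22, Tc0 with CoA held in each mouse. The log2 fold change was 2.58 ± 0.22 for CoA against Tc0 and 1.74 ± 0.22 for Tc22 against Tc0. Within the mice the ratio of CoA to Tc0 was 5.91, 8.62 and 4.49, and that of Tc22 to Tc0 was 2.43, 5.23 and 3.09. Both calls held without each of the 9 libraries in turn, with log2 fold changes of 2.34 to 2.76 and 1.497 to 1.96. Tc22 cells were lower than CoA-treated Tc0 cells by a log2 fold change of -0.84 ± 0.21, a call lost with the CoA library of mouse 725 left out (-0.77) or with the Tc22 library of mouse 715 left out (-0.63).

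**Figure D1:**
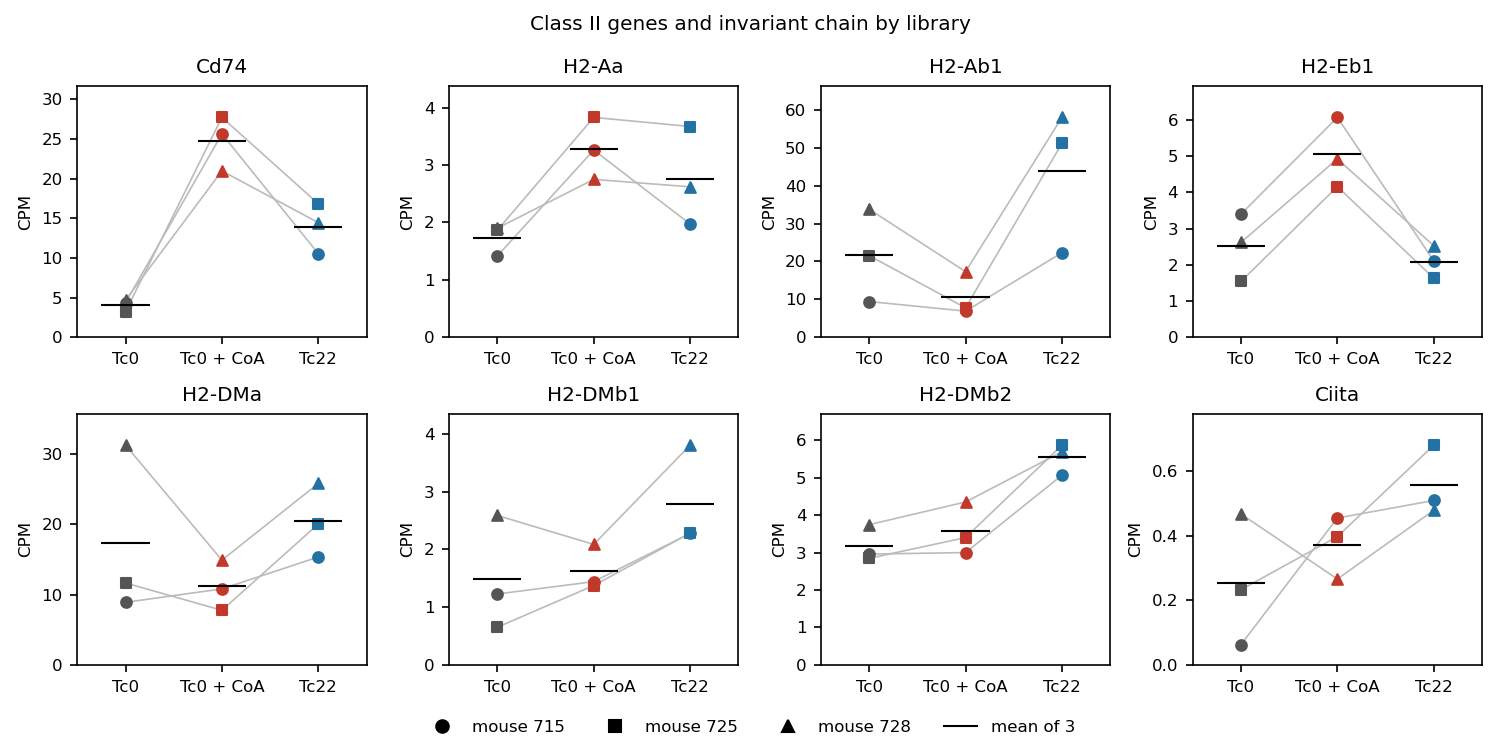
Level of each of the 8 genes in CPM (linear axes from 0) in the 9 libraries. Symbols mark the mice, grey lines join the libraries of a mouse and black bars are the means of 3. Cd74 is lowest in Tc0 and highest with CoA in each mouse, whereas H2-Ab1 is lowest with CoA and highest in Tc22.

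H2-Ab1 (ENSMUSG00000073421, chromosome 17, 34257689 to 34269419, plus strand) encodes the beta chain of the A molecule, the classical class II molecule that C57BL/6 cells can assemble. Its level was 9.41, 21.5 and 33.8 CPM in Tc0 cells of mice 715, 725 and 728 (21.6 ± 12.2, n = 3). It was 6.87, 7.74 and 17.3 CPM with CoA (10.6 ± 5.79, n = 3) and 22.3, 51.2 and 58.0 CPM in Tc22 cells (43.8 ± 19.0, n = 3). In each group mouse 715 was lowest and mouse 728 highest, and Tc0 overlapped both other groups, so its differences show within the mice rather than between the group ranges. Tc22 cells held 2.37, 2.38 and 1.72 times the Tc0 level of the same mouse, and CoA-treated cells held 0.730, 0.359 and 0.512 times that level. The log2 fold change was 1.09 ± 0.20 for Tc22 against Tc0, -0.96 ± 0.21 for CoA against Tc0 and 2.05 ± 0.21 for Tc22 against CoA. Tc22 and CoA-treated cells did not overlap, and that call held without each library in turn (1.77 to 2.26). The Tc22 against Tc0 call ended when any 1 of the Tc0 and Tc22 libraries of mice 715 and 725 was omitted (0.88 to 1.16), or the mouse block. Omitting 1 of these libraries also left 201 to 285 calls over all genes, against 565 with all 9. The CoA against Tc0 call ended when the Tc0 library of mouse 725 (-0.90) or the mouse block was omitted.

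H2-Aa (ENSMUSG00000036594, chromosome 17, 34282744 to 34287823, minus strand) encodes the alpha chain that pairs with H2-Ab1. It stood at 1.42, 1.865 and 1.90 CPM in Tc0 cells (1.73 ± 0.270, n = 3), at 3.26, 3.83 and 2.75 CPM with CoA (3.28 ± 0.541, n = 3) and at 1.97, 3.67 and 2.62 CPM in Tc22 cells (2.76 ± 0.859, n = 3). Both other groups lay above the highest Tc0 library and overlapped each other. The log2 fold change was 0.92 ± 0.23 for CoA against Tc0 and 0.64 ± 0.23 for Tc22 against Tc0. Of these the first was called. It ended when any of 3 libraries was omitted, Tc0 of mouse 715 (0.88), Tc0 of mouse 725 (0.81) or CoA of mouse 725 (0.96), and when the mouse block was omitted. Tc22 and CoA-treated cells differed by -0.28 ± 0.22. The partner chains thus lay on opposite sides of Tc0 with CoA, H2-Aa above and H2-Ab1 below in each mouse.

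H2-Eb1 (ENSMUSG00000060586, chromosome 17, 34305867 to 34316674, plus strand) encodes the beta chain of the E molecule. It stood at 3.40, 1.54 and 2.62 CPM in Tc0 cells (2.52 ± 0.934, n = 3), at 6.07, 4.16 and 4.93 CPM with CoA (5.05 ± 0.963, n = 3) and at 2.11, 1.63 and 2.53 CPM in Tc22 cells (2.09 ± 0.448, n = 3). The CoA libraries lay above the other 6, while Tc0 and Tc22 overlapped. The log2 fold change was 1.035 ± 0.22 for CoA against Tc0, -1.27 ± 0.22 for Tc22 against CoA and -0.24 ± 0.22 for Tc22 against Tc0. The Tc22 against CoA call held without each library in turn (-1.40 to -1.10), and the CoA against Tc0 call ended when the Tc0 library of mouse 725 (0.89) or the mouse block was omitted.

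H2-DMa (ENSMUSG00000037649, chromosome 17, 34119541 to 34139101, plus strand) encodes the alpha chain of H2-DM. It stood at 8.91, 11.7 and 31.3 CPM in Tc0 cells (17.3 ± 12.2, n = 3), at 10.8, 7.78 and 14.9 CPM with CoA (11.2 ± 3.58, n = 3) and at 15.4, 20.1 and 25.8 CPM in Tc22 cells (20.4 ± 5.24, n = 3). The Tc0 library of mouse 728, the one that stood apart, was the highest of the 9, and Tc0 overlapped both other groups. The log2 fold change was 0.88 ± 0.25 for Tc22 against CoA, which was called, 0.40 ± 0.25 for Tc22 against Tc0 and -0.48 ± 0.26 for CoA against Tc0. The call ended when CoA or Tc22 of mouse 725, CoA of mouse 728, Tc22 of mouse 715 or the mouse block was omitted. H2-DMa shares 360 exon bases with Brd2 on the opposite strand, which averaged 168 CPM and differed by log2 fold changes of 0.03, 0.06 and -0.03 for Tc22 against Tc0, CoA against Tc0 and Tc22 against CoA. The sources used here do not say whether the counting used the strand.

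H2-DMb1 (ENSMUSG00000079547, chromosome 17, 34153072 to 34160230, plus strand) and H2-DMb2 (ENSMUSG00000037548, chromosome 17, 34143307 to 34151555, plus strand) are neighbouring copies that encode H2-DM beta chains. Of the stretches of 100 bases in H2-DMb1 transcripts 11.3% also occurred in H2-DMb2, and 10.3% the other way round, so reads may have been split between them. H2-DMb2 stood at 2.96, 2.84 and 3.74 CPM in Tc0 cells (3.18 ± 0.490, n = 3), at 2.999, 3.40 and 4.35 CPM with CoA (3.58 ± 0.694, n = 3) and at 5.07, 5.87 and 5.69 CPM in Tc22 cells (5.54 ± 0.422, n = 3). The Tc22 libraries lay above the other 6, with log2 fold changes of 0.80 ± 0.18 against Tc0 and 0.64 ± 0.18 against CoA, whereas CoA and Tc0 differed by 0.16 ± 0.18. Both Tc22 calls ended when the mouse block or any 1 of 5 libraries was omitted: against Tc0, the Tc0 and Tc22 libraries of mice 715 and 725 and CoA of mouse 728, and against CoA, its 3 libraries and Tc22 of mice 715 and 725. The first also ended when Tc22 and Tc0 were fitted without the CoA libraries. H2-DMb1 stood at 1.23, 0.653 and 2.59 CPM in Tc0 cells (1.49 ± 0.994, n = 3), at 1.44, 1.37 and 2.09 CPM with CoA (1.63 ± 0.393, n = 3) and at 2.28, 2.28 and 3.81 CPM in Tc22 cells (2.79 ± 0.881, n = 3). Its log2 fold change was 0.97 ± 0.27 for Tc22 against Tc0, 0.22 ± 0.28 for CoA against Tc0 and 0.75 ± 0.27 for Tc22 against CoA, where the libraries did not overlap, and it was called in none of these. With the counts of both copies added, the differences were 0.86 ± 0.17, 0.17 ± 0.18 and 0.69 ± 0.17 in the same order. These are differences of the sum, in which H2-DMb2 has the larger part, and how reads were shared between the copies was not tested.

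Ciita (ENSMUSG00000022504, chromosome 16, 10480059 to 10528418, plus strand) encodes the transactivator and was close to the limit of detection. It stood at 0.0630, 0.233 and 0.468 CPM in Tc0 cells (0.255 ± 0.203, n = 3), on 2 to 17 counts. It stood at 0.456, 0.398 and 0.266 CPM with CoA (0.373 ± 0.0970, n = 3) and at 0.510, 0.682 and 0.480 CPM in Tc22 cells (0.557 ± 0.109, n = 3), on 15 to 23 counts. The Tc22 libraries lay above the 3 Tc0 and the 3 CoA libraries, with the lowest Tc22 library close to the highest of them. The log2 fold change was 1.10 ± 0.55 for Tc22 against Tc0, 0.56 ± 0.59 for CoA against Tc0 and 0.54 ± 0.53 for Tc22 against CoA, and none was called. At this depth a log2 fold change of 1.10, with an SE of 0.55, did not pass the threshold. Ciita shares 329 exon bases with Dexi on the opposite strand, which averaged 5.20 CPM, and reads of Dexi may be among these few counts.

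For Tc22 against Tc0, 3 of the 8 genes were called higher (Cd74, H2-Ab1 and H2-DMb2) and 0 lower, beside 3.68% of all tested genes called in either direction, 2.48% higher and 1.21% lower. The median log2 fold change of the 8 was 0.89, against -0.01 over all tested genes. Without the Tc0 library of mouse 728, 6 of the 8 were called, with Ciita (2.14), H2-DMa (0.77) and H2-DMb1 (1.301) added, while the calls over all genes went from 565 of 15348 to 2669 of 15696. Without the Tc0 or Tc22 library of mouse 715 or mouse 725, 1 of the 8 was called, Cd74 each time, while 201 to 285 of all genes were called. For CoA against Tc0, 3 were called higher (Cd74, H2-Aa and H2-Eb1) and 1 lower (H2-Ab1), beside 24.5% of all tested genes called, 12.5% higher and 12.0% lower. The median was 0.39 against -0.01. For Tc22 against CoA, 3 were called higher (H2-Ab1, H2-DMa and H2-DMb2) and 2 lower (Cd74 and H2-Eb1), beside 32.0% of all tested genes called, 16.0% in each direction. The median was 0.59 against 0.01. The libraries of the groups did not overlap for 4 of the 8 genes in Tc22 against Tc0 (12.5% of all tested genes), for 3 in CoA against Tc0 (27.8%) and for 7 in Tc22 against CoA (41.9%). The rule that gathered the genes used these comparisons, so nothing is read from the counts. The comparisons share libraries, the first 2 their Tc0 controls, and are set side by side without a test between them. With the mouse block left out, 1, 1 and 3 of the 8 were called in the 3 comparisons.

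**Figure D2:**
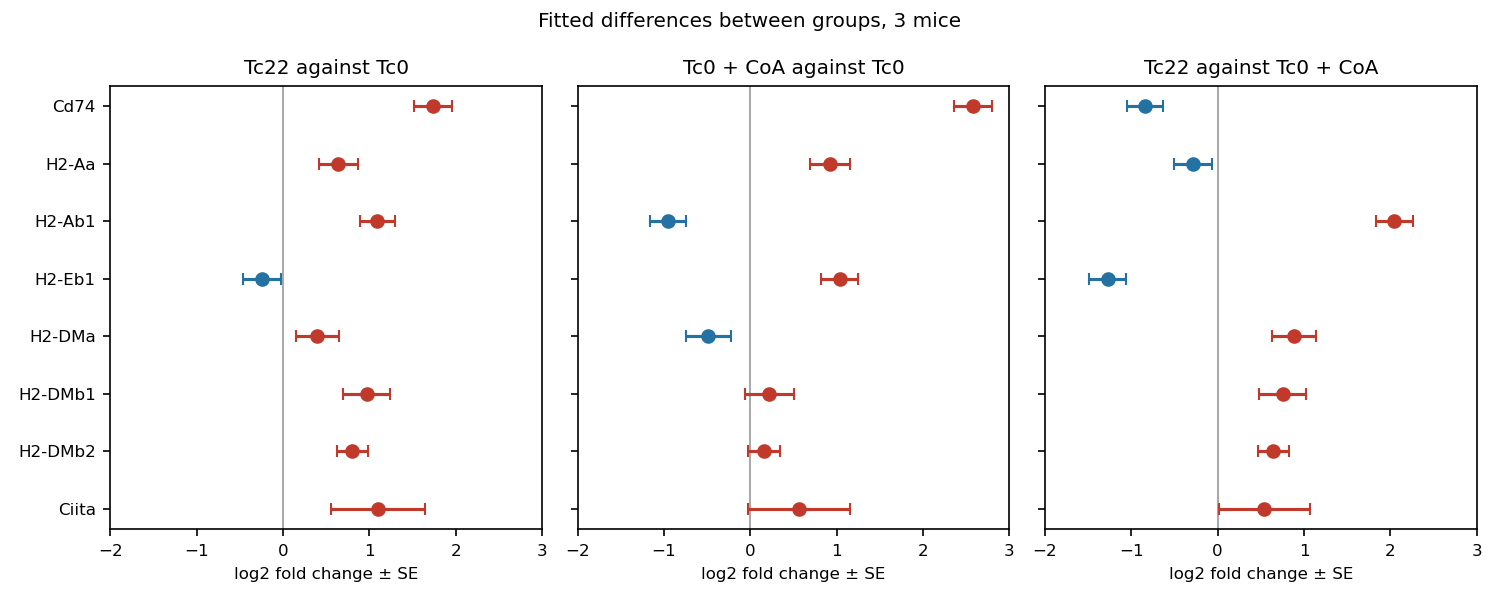
Fitted log2 fold change ± SE of each gene in the 3 comparisons (9 libraries, 3 mice). Red points lie above 0 and blue points below. Cd74 lies above 0 in both comparisons with Tc0, whereas H2-Ab1 lies at 1.09 for Tc22 and at -0.96 for CoA.

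Per kb of exon, the make-up of the family differed between the groups. Cd74 made up 9.11% to 19.3% of the summed CPM per kb of the 8 genes in Tc0 cells, 40.9% to 59.55% with CoA and 18.6% to 24.8% in Tc22 cells. H2-Ab1 made up 27.4% to 49.3% in Tc0 cells, 9.66% to 22.0% with CoA and 34.3% to 48.85% in Tc22 cells. The CoA libraries were thus set apart from the other 6 in both shares. The sum itself was 13.4, 17.01 and 30.6 CPM per kb in Tc0 cells, 27.7, 27.7 and 30.6 with CoA and 25.3, 42.4 and 46.3 in Tc22 cells. The ratio of Cd74 to H2-Ab1 was 0.706, 0.228 and 0.212 in Tc0 cells, 5.71, 5.48 and 1.86 with CoA and 0.723, 0.503 and 0.381 in Tc22 cells. Cd74 exceeded H2-Ab1 per kb in the 3 CoA libraries and in none of the other 6.

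**Figure D3:**
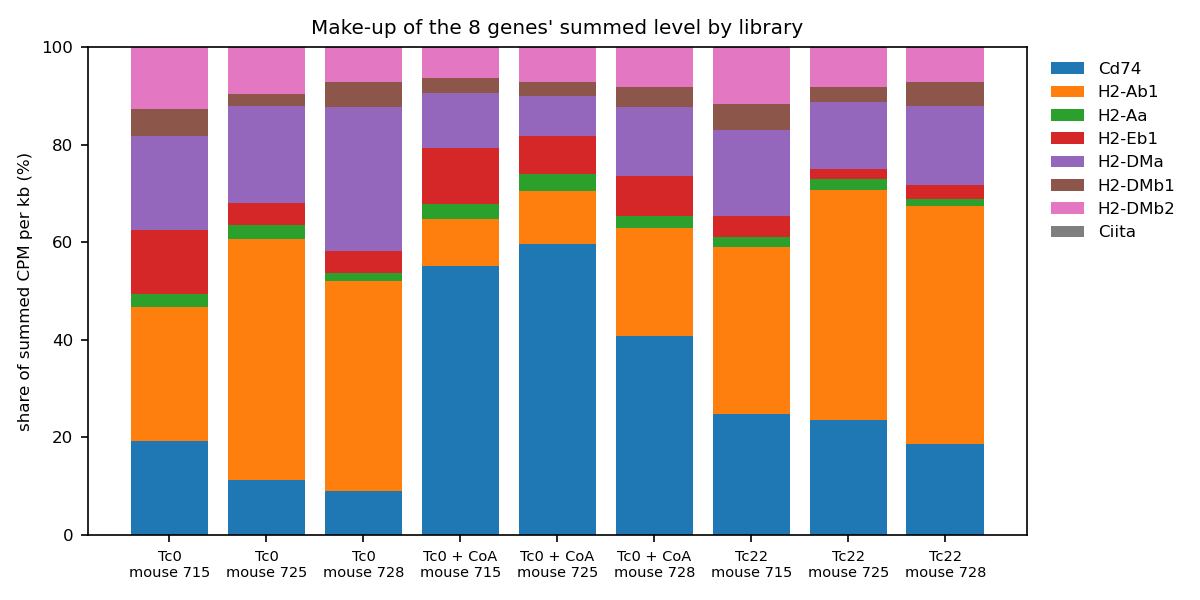
Share of each gene in the summed CPM per kb of the 8 genes, in percent, for each library. The Cd74 share is 40.9% to 59.55% in the CoA libraries and at most 24.8% in the others. The Ciita share is too thin to see.

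The partner chains were far from equal. Per kb, H2-Ab1 exceeded H2-Aa by a ratio of 9.83, 17.1 and 26.3 in Tc0 cells, 3.11, 2.99 and 9.30 with CoA and 16.7, 20.6 and 32.7 in Tc22 cells. In each mouse the ratio was lowest with CoA and highest in Tc22 cells. Its size depends on the annotated exon lengths, 3798 bases for H2-Aa and 2568 for H2-Ab1. In counts, not divided by length, it was 6.64 to 17.8 in Tc0 cells, 2.02 to 6.29 with CoA and 11.3 to 22.1 in Tc22 cells. Again per kb, the ratio of Cd74 to H2-Aa was 6.94, 3.90 and 5.57 in Tc0 cells, 16.4 to 17.8 with CoA and 10.4 to 12.5 in Tc22 cells, so the 3 groups did not overlap. H2-DMa stood at 1.07 to 2.46 times the summed H2-DMb genes in Tc0 cells, 0.816 to 1.22 times with CoA and 1.05 to 1.36 times in Tc22 cells, and these ranges overlapped. Over the 9 libraries the Pearson correlation of log2(CPM + 0.5) was 0.885 between Cd74 and H2-Aa, -0.20 between Cd74 and H2-Ab1, -0.72 between H2-Ab1 and H2-Eb1, 0.868 between H2-Ab1 and H2-DMa and 0.827 between H2-DMb1 and H2-DMb2. These libraries share 3 mice and fall into 3 groups, so the correlations are descriptions. Cd74 and H2-Ab1 thus had a correlation near 0 while each was close to another member.

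Against other genes the levels were moderate to low. By mean CPM per kb, Cd74 lay above 42.7% of 15339 tested genes with an exon length in Tc0 cells, 78.4% with CoA and 67.5% in Tc22 cells. H2-Ab1 lay above 67.65%, 53.0% and 81.3%. Ciita lay above 0.763%, 0.867% and 1.845%. The class I genes offer a scale: H2-K1, a class I heavy chain, lay above at least 98.1% of genes in each group. Per kb H2-K1 exceeded H2-Ab1 by 21.1 to 41.8 times in Tc0 cells, 26.3 to 51.1 times with CoA and 9.001 to 16.9 times in Tc22 cells.

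The members other than Cd74 and Ciita lie in the class II region of chromosome 17, which runs from H2-Oa to H2-Eb2 (34092340 to 34341412, GRCm38) and holds 14 protein-coding genes, each of them tested. H2-Oa and H2-Ob encode H2-O, which inhibits H2-DM. H2-Ob stood at 5.92, 8.86 and 7.93 CPM in Tc0 cells, 4.06, 1.92 and 4.35 with CoA and 7.61, 8.445 and 10.9 in Tc22 cells. It fell with CoA against Tc0 (log2 fold change -1.16 ± 0.28, edgeR adjusted p = 0.0165) and was higher in Tc22 than with CoA (1.39 ± 0.28, edgeR adjusted p = 0.00538). The first call ended when Tc0 of mouse 725 or CoA of mouse 725 or 728 was omitted (edgeR adjusted p 0.0548 to 0.0786), and the second held without each library in turn. With the mouse block omitted the first had an edgeR adjusted p of 0.05025. H2-Oa also fell with CoA (-1.045 ± 0.32, edgeR adjusted p = 0.0396), a call that ended when Tc0 or CoA of mouse 725 or 728, or Tc22 of mouse 715, was omitted (edgeR adjusted p 0.0510 to 0.184) or the mouse block was (edgeR adjusted p = 0.173). It was higher in Tc22 than with CoA (0.97 ± 0.32, edgeR adjusted p = 0.0417), which ended without the CoA library of mouse 725 or 728, any Tc22 library or the mouse block (edgeR adjusted p 0.0581 to 0.224). Neither H2-O gene passed the test for Tc22 against Tc0: H2-Oa differed by -0.08 ± 0.31 (edgeR adjusted p = 0.902) and H2-Ob by 0.23 (edgeR adjusted p = 0.629). H2-Eb2, a beta chain gene next to H2-Eb1, had 11 to 14 counts in Tc0 libraries, 13 to 20 in Tc22 libraries and 1 to 2 with CoA. Its neighbour H2-Eb1 had 111 to 160 counts with CoA against 33 to 108 in Tc0 libraries, so adjacent beta chain genes lay on opposite sides of Tc0. H2-Eb2 was called lower with CoA than in Tc0 cells (edgeR adjusted p = 0.0113), and not when Tc0 of mouse 725 or CoA of mouse 728 was omitted (edgeR adjusted p 0.0581 to 0.0611). With the CoA and Tc0 libraries fitted alone H2-Eb2 had no value, so it entered this comparison through the Tc22 libraries. Its call is a description on few counts.

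**Figure D4:**
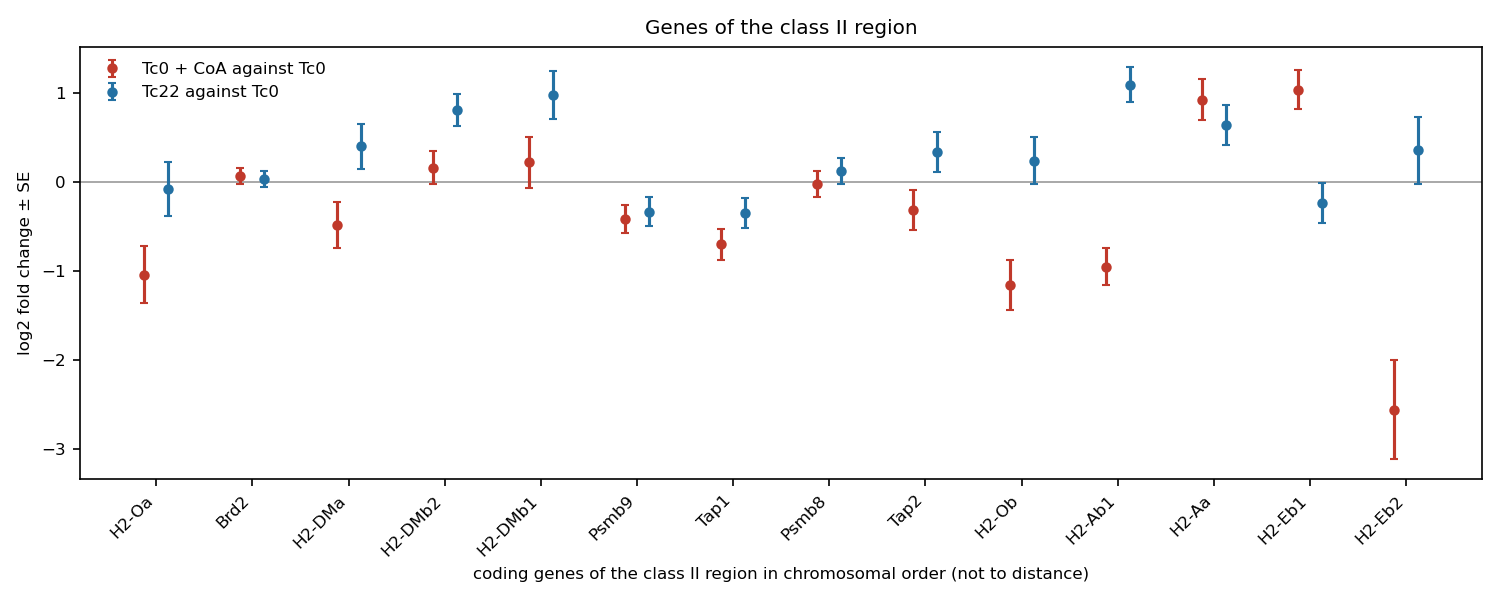
Log2 fold change ± SE against Tc0 of the 14 protein-coding genes of the class II region in chromosomal order (not to distance), for CoA (red) and Tc22 (blue). With CoA, H2-Oa, H2-Ob, H2-Ab1 and H2-Eb2 lie near or below -1, while H2-Aa and H2-Eb1 lie near 1; the H2-Eb2 value rests on 1 to 2 counts per CoA library.

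Of a list of 48 genes that regulate, load or accompany class II, 45 passed the filter on low counts. The list was chosen with earlier results of these data known, so its p-values are descriptions. For Tc22 against Tc0, 4 of the 45 rose and 4 fell, beside 2.48% of all tested genes called higher and 1.21% lower. The median log2 fold change of the list was -0.03. Without the Tc0 library of mouse 728, 6 rose and 7 fell, while 2669 of 15696 genes were called. Irf8, a transcription factor of the interferon regulatory family, fell by 1.59 on the log2 scale (SE 0.15, edgeR adjusted p = 0.000801), from 52.25, 79.65 and 104.0 CPM to 23.6, 26.05 and 25.9 CPM. Cd83, which slows the removal of class II from the surface, fell by 2.08 (edgeR adjusted p = 0.00442). Both calls held without each library in turn, and that of Cd83 ended when the mouse block was omitted (edgeR adjusted p = 0.134). Ifngr2, a chain of the interferon gamma receptor, rose (0.83 ± 0.15, edgeR adjusted p = 0.0161), as did Ddt, a homologue of the Cd74 ligand Mif (1.29 ± 0.22, edgeR adjusted p = 0.0114). Each of these ended when the mouse block or any 1 of 4 libraries was omitted: Tc0 of mice 715 and 725 and Tc22 of mouse 725 for both, with Tc22 of mouse 728 for Ifngr2 and of mouse 715 for Ddt. Rfx5, the DNA-binding subunit of RFX, stood at 21.4 to 22.7 CPM in Tc0 cells, 20.65 to 23.9 with CoA and 31.4 to 33.6 in Tc22 cells. It rose in Tc22 against Tc0 (0.57 ± 0.11, edgeR adjusted p = 0.0235), a call that ended when any Tc22 library, Tc0 of mouse 715 or 725 or CoA of mouse 728 was omitted (edgeR adjusted p 0.0529 to 0.153, log2 fold change 0.54 to 0.60). With the mouse block omitted it had an edgeR adjusted p of 0.0967. Rfxank (0.43, edgeR adjusted p = 0.280), Rfxap (0.09, edgeR adjusted p = 0.764), Ctss (-0.02, edgeR adjusted p = 0.9075), Lgmn (0.39, edgeR adjusted p = 0.439) and Irf1 (-0.35, edgeR adjusted p = 0.340) did not pass the test. The higher Cd74 and H2-Ab1 of Tc22 cells thus stood beside lower Irf8.

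For CoA against Tc0, 10 of the 45 measured genes of the list rose and 10 fell, with a median of -0.03. Of all tested genes, 12.5% were called higher and 12.0% lower. Of the proteases that process the invariant chain and antigens, Ctsz, which encodes cathepsin Z, rose (1.215 ± 0.16, edgeR adjusted p = 0.00218), and Lgmn, which encodes legumain, rose (1.65 ± 0.28, edgeR adjusted p = 0.00467). Lgmn stood at 0.979 to 2.11 CPM in Tc0 cells and at 3.83 to 4.665 CPM with CoA. Ctsl, which encodes cathepsin L, also rose (0.56, edgeR adjusted p = 0.0214). Ctss, which encodes cathepsin S, differed by -0.27 (edgeR adjusted p = 0.0902), and Ctsb (-0.07) and Ctsd (-0.14) were not called either. Prdm1, which encodes the Ciita repressor Blimp-1, fell by 2.64 (SE 0.37, edgeR adjusted p = 0.00266). The NF-Y subunit genes differed in direction: Nfya fell by 0.58 (edgeR adjusted p = 0.00590) and Nfyc rose by 0.43 (edgeR adjusted p = 0.0271). Nfyb was not called (-0.12, edgeR adjusted p = 0.412). The calls of Ctsz, Lgmn, Prdm1 and Nfya held without each library in turn. That of Ctsl ended when any 1 of 3 libraries was omitted. That of Nfyc ended when any 1 of 6 libraries, the mouse block or the low-count filter was omitted, and with the compared groups alone. Rfx5 (0.06, edgeR adjusted p = 0.755), Rfxank (-0.55, edgeR adjusted p = 0.0968), Rfxap (-0.31, edgeR adjusted p = 0.162) and Irf1 (-0.49, edgeR adjusted p = 0.109) did not pass the test.

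For Tc22 against CoA, 14 of the 45 measured genes of the list rose and 14 fell, with a median of 0.03. Of all tested genes, 16.0% were called in each direction. Irf8 was lower in Tc22 cells by a log2 fold change of -1.74 (edgeR adjusted p = 0.000203). So were the costimulatory or accessory genes Cd83 (-2.85, edgeR adjusted p = 0.000369), Cd80 (-2.15, edgeR adjusted p = 0.000664) and Cd86 (-2.02, edgeR adjusted p = 0.00143), and Lgmn (-1.265, edgeR adjusted p = 0.00679). Of the RFX subunits, 2 were higher in Tc22 cells: Rfx5 (0.51, edgeR adjusted p = 0.00791) and Rfxank (0.99, edgeR adjusted p = 0.00900). Both RFX calls ended when CoA or Tc22 of mouse 725 was omitted (edgeR adjusted p 0.0513 to 0.0582). The calls of Irf8, Cd80, Cd83, Cd86 and Lgmn held without each library in turn. With the mouse block omitted those of Cd80 and Rfxank ended (edgeR adjusted p = 0.0734 and 0.109). Rfxap (0.40, edgeR adjusted p = 0.0700), Ctss (0.24, edgeR adjusted p = 0.1045) and Irf1 (0.14, edgeR adjusted p = 0.639) did not pass the test.

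Ifng, which encodes interferon gamma, the cytokine best known for inducing Ciita, stood at 8.59, 1.865 and 1.51 CPM in Tc0 cells. It stood at 37.5, 43.4 and 22.9 CPM with CoA and at 2.79, 2.64 and 1.85 CPM in Tc22 cells. It rose with CoA against Tc0 (3.34 ± 0.41, edgeR adjusted p = 0.00181) and was lower in Tc22 than with CoA (-3.84 ± 0.42, edgeR adjusted p = 0.000461), calls that held without each library in turn. Between Tc22 and Tc0 it differed by -0.50 ± 0.42 (edgeR adjusted p = 0.511). With CoA, high Ifng stood beside higher Cd74, H2-Aa and H2-Eb1 but lower H2-Ab1 (-0.96), and Ciita was not called (0.56 ± 0.59). Of the receptor genes, Ifngr1 fell with CoA (-1.11 ± 0.22, edgeR adjusted p = 0.00799), which held without each library in turn. Ifngr2 was not called (0.06 ± 0.15). In Tc22 cells Cd74 was higher than in Tc0 cells with Ifng in the range of Tc0. The part of interferon gamma in these differences was not tested.

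Genes of class I presentation, a list of 19 that were all measured, are regulated in part by the same promoter boxes through Nlrc5, a relative of Ciita. This list too was chosen with earlier results of these data known, so its p-values are descriptions. For Tc22 against Tc0, 0 rose and 2 fell, with a median of -0.12, beside 3.68% of all tested genes called. The 2 were Nlrc5, by 1.21 (SE 0.15, edgeR adjusted p = 0.00302), and the peptide trimming enzyme Erap1, by 0.52 (edgeR adjusted p = 0.0231). Without the Tc0 library of mouse 728, 2 genes of the list rose and 4 fell, while 2669 of 15696 genes were called. Nlrc5 stood at 131.9, 180.3 and 217.0 CPM in Tc0 cells, 115.2, 91.2 and 117.9 with CoA and 69.8, 77.0 and 78.5 in Tc22 cells, in the same order in each mouse. The Nlrc5 call held without each library in turn, and that of Erap1 ended when Tc0 or Tc22 of mouse 715 or 725, or CoA of mouse 728, was omitted (edgeR adjusted p 0.0561 to 0.182), and when the mouse block was. With CoA against Tc0, the chaperone calreticulin (Calr) rose (0.76 ± 0.11, edgeR adjusted p = 0.00265). Nlrc5 (-0.69, edgeR adjusted p = 0.0111), Tap1 (-0.70, edgeR adjusted p = 0.0178) and H2-K1 (-0.42, edgeR adjusted p = 0.0384) fell. These 3 calls each ended when Tc0 of mouse 725, CoA of mouse 725 or CoA of mouse 728 was omitted, those of Tap1 and H2-K1 also without Tc0 of mouse 728, and that of H2-K1 without Tc22 of mouse 715. The calls of Tap1 and H2-K1 ended without the mouse block (edgeR adjusted p = 0.166 and 0.230), and that of H2-K1 also with scaling by library size alone or with the compared groups alone. The median was -0.26, and these calls, 1 higher and 3 lower of 19, stood beside 24.5% of all tested genes called. For Tc22 against CoA 2 rose, the tapasin gene Tapbp (0.70, edgeR adjusted p = 0.00691) and Tap2 (0.65, edgeR adjusted p = 0.0498), and 3 fell: Calr (-0.59, edgeR adjusted p = 0.00342), Nlrc5 (-0.53, edgeR adjusted p = 0.0238) and Pdia3 (-0.39, edgeR adjusted p = 0.0315). Of these 5 calls, that of Calr held without each library in turn and without the mouse block, and the other 4 ended without the block and without 1 to 5 of the libraries. The median was 0.08, and the 5 calls among 19 genes stood beside 32.0% of all tested genes called. By the fit, Nlrc5 lay at -1.21 in Tc22 against Tc0 and Ciita at 1.10, not called. Ciita rested on 2 to 17 counts in Tc0 libraries, and its Tc22 to Tc0 ratios were 8.10, 2.92 and 1.025 in mice 715, 725 and 728. The 2 genes were not compared in a test.

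**Figure D5:**
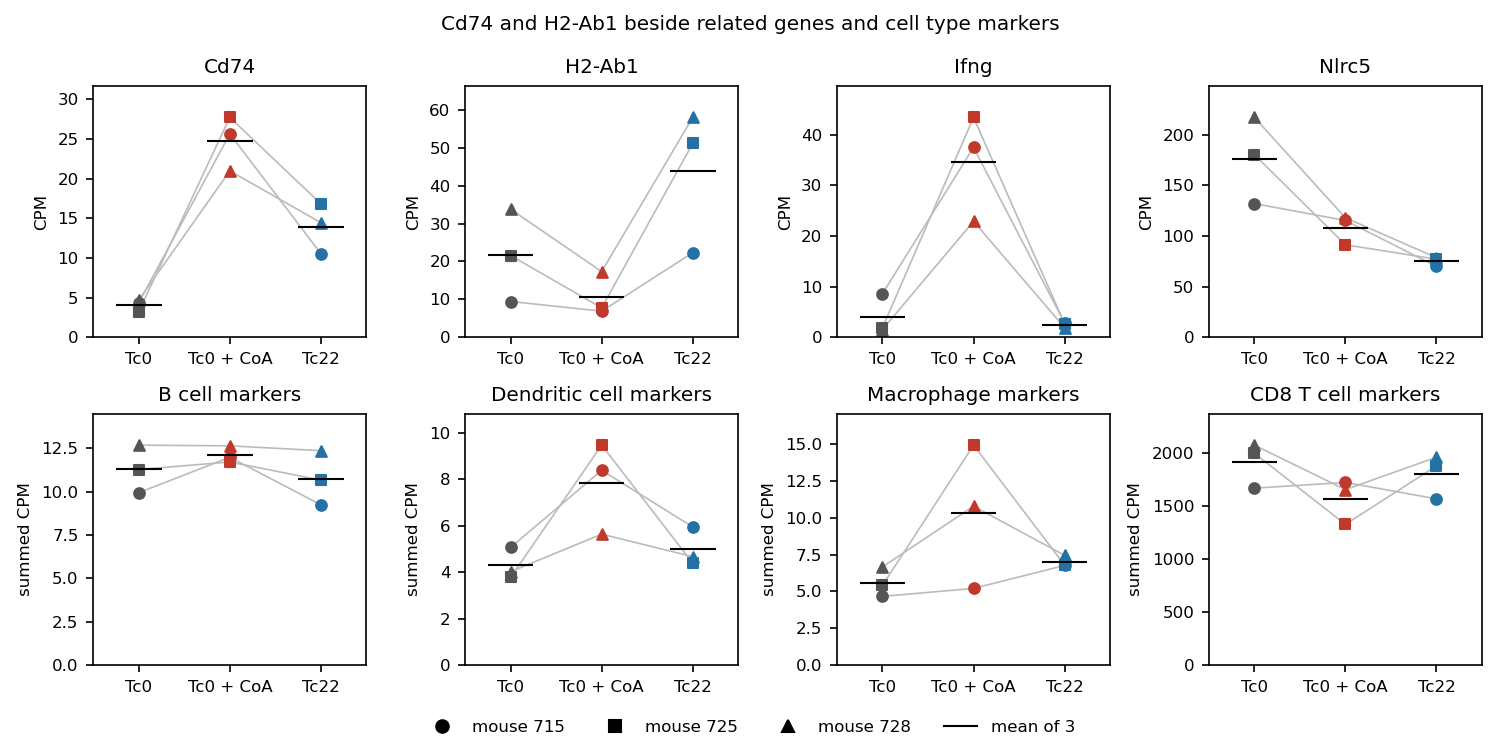
Cd74, H2-Ab1, Ifng and Nlrc5 (CPM) and the summed CPM of marker lists for B cells, dendritic cells, macrophages and monocytes, and CD8 T cells in the 9 libraries, on linear axes from 0. Symbols mark the mice and black bars the means of 3. Ifng is at 22.9 to 43.4 CPM with CoA and at most 8.59 CPM elsewhere; the CD8 T cell sum is at least 1327 CPM in each library.

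The labelled cell type had its markers: Cd8a, Cd8b1, Cd3d, Cd3e and Cd3g summed to 1669 to 2075 CPM in Tc0 libraries, 1327 to 1723 with CoA and 1568 to 1961 in Tc22 libraries. With CoA against Tc0, 3 of these 5 markers fell: Cd3d, Cd3e and Cd3g by 0.79, 0.72 and 0.72 on the log2 scale (edgeR adjusted p = 0.00616, 0.00598 and 0.0231). Cd8a (-0.06, edgeR adjusted p = 0.742) and Cd8b1 (0.00, edgeR adjusted p = 0.983) did not pass the test. The Cd3g call ended when Tc0 or CoA of mouse 725 or 728 was omitted (edgeR adjusted p 0.0515 to 0.121), and that of Cd3e when the mouse block was (edgeR adjusted p = 0.0662). Cells rich in class II have markers of their own. The 10 B cell markers summed to 9.95 to 12.7 CPM in Tc0 libraries, 11.7 to 12.65 with CoA and 9.25 to 12.4 in Tc22 libraries, and 7 to 10 of them had a count. Most of that sum was Cd79b, and without it, a choice made after the values were seen, the sums were 0.991 to 2.005, 3.46 to 5.895 and 1.51 to 2.515 CPM. The B cell marker Ms4a1 had 6, 1 and 0 counts in Tc0 libraries, 8, 27 and 6 with CoA and 1, 0 and 2 in Tc22 libraries. Mean CPM of Cd79a, Cd22 and Ebf1 was higher in Tc22 than in Tc0 libraries, and that of the other B cell markers was lower. The 8 dendritic cell markers summed to 3.78 to 5.07, 5.64 to 9.475 and 4.39 to 5.95 CPM with 4 to 6 detected, and Siglech and Cd209a were at 0 in all 9 libraries. The 9 macrophage and monocyte markers summed to 4.66 to 6.66, 5.20 to 14.9 and 6.76 to 7.45 CPM with 4 to 9 detected. With CoA against Tc0, 1 of the 3 B cell markers that passed the filter on low counts was called higher, Ebf1 (4.52), while Cd79b (-0.39) and Cr2 (-0.83) were not called. Ebf1 had 1 to 6 counts in Tc0 libraries, 42 to 95 with CoA and 7 to 41 in Tc22 libraries. Of the 4 dendritic cell markers 1 was called higher, Zbtb46 (1.06), and Flt3 (0.72), Itgax (0.35) and Xcr1 (-0.35) were not called. Of the 5 macrophage and monocyte markers 2 were called higher, Lyz2 (1.15) and Cd14 (2.24), and Csf1r (1.50), Mrc1 (1.63) and Cd68 (0.02) were not called. Of 2 granulocyte and mast cell markers 1 was called higher, Mcpt8 (2.77). The calls of Ebf1 and Mcpt8 held without each library in turn and without the mouse block. Those of Zbtb46 and Lyz2 ended without Tc0 or CoA of mouse 725 and that of Cd14 without Tc0 of mouse 725 or 728, and these 3 ended without the mouse block (edgeR adjusted p 0.0570 to 0.171). The full B cell and macrophage sums of the CoA and Tc0 libraries overlapped, whereas the B cell sums without Cd79b did not. Without Cd68, also a choice made after the values were seen, the macrophage sums were 1.35, 3.40 and 3.17 CPM in Tc0 libraries. With CoA they were 2.62, 12.1 and 7.37 CPM, higher in each mouse. The 6 granulocyte and mast cell markers summed to 0.409 to 1.26 CPM in Tc0 libraries and 1.67 to 4.38 with CoA, without overlap. The full dendritic cell sums did not overlap. Without Zbtb46, their largest gene and again a choice made after the values were seen, they did overlap. These trimmed dendritic cell sums were 0.854 to 1.63 CPM in Tc0 libraries and 0.977 to 1.92 with CoA. For Tc22 against CoA, the markers called lower were Ebf1 (-2.27), Zbtb46 (-0.95), Lyz2 (-1.83), Cd14 (-2.58) and Csf1r (-1.60). So were the granulocyte and mast cell markers Cpa3 (-2.56) and Mcpt8 (-1.445). Called higher were Cd68 (0.72), Cd3d (0.83), Cd3e (0.61), Cd3g (0.62) and the natural killer marker Klrb1c (1.57). Others of these lists were not called. Calls of Lyz2, Cd14, Cpa3, Cd3d and Cd3e held without each library in turn. Without the mouse block only that of Cd3d held. The part of other cell types in the differences of the 8 genes, with CoA or in Tc22 cells, was not tested. The 4 CD4 T cell markers summed to 8.67 to 14.7, 12.2 to 15.85 and 13.2 to 16.3 CPM. Of these Cd40lg was called lower in Tc22 than with CoA (-1.67), which held without each library in turn and without the mouse block. Cd4 itself was called higher in Tc22 than in Tc0 cells (1.59 ± 0.37, edgeR adjusted p = 0.0484), a call that 7 of the 9 left-out libraries ended (the exceptions being Tc0 of mouse 728 and CoA of mouse 725), as did DESeq2, scaling by library size alone, the compared groups alone and the fit without the mouse block.

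Over the 9 libraries, the 6 genes most like Cd74 among 10795 with at least 1 CPM on average, by the Pearson correlation of log2(CPM + 0.5), were Tagap (0.961), Prf1 (0.955), Upp1 (0.955), Cd82 (0.954), Nsf (0.953) and Tbrg1 (0.950). Prf1 encodes perforin, the pore-forming protein of cytotoxic granules, and Cd82 a tetraspanin. Tagap averaged 25.4 CPM in Tc0 cells, 75.2 with CoA and 47.5 in Tc22 cells. The 6 genes most like the sum of H2-Aa, H2-Ab1 and H2-Eb1, which is mostly H2-Ab1, were Slc39a4 (0.988), Isg20 (0.987), Ltb (0.983), Plekha6 (0.982), Hvcn1 (0.981) and Xdh (0.980). Ltb encodes lymphotoxin beta and averaged 54.9 CPM in Tc0 cells, 24.8 with CoA and 128.6 in Tc22 cells. The genes are the extremes of a search over many genes in libraries that fall into 3 groups, so these likenesses are descriptions.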

How the data were processed

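The authors deposited 1 table of whole-number gene counts for 9 libraries, and per the labels' protocols these came from ribosomal RNA-depleted, stranded total RNA libraries of random-primed cDNA, sequenced as paired ends. Listed in the submitters' processing notes, without role or order, are the tools STAR (2.5.2) and RSEM (1.3.0) and, as builds, GRCm38 with mm10. Strand setting and annotation release: not given in the sources used here. RSEM writes estimated counts, so the deposited counts may have been rounded. Of 53679 gene IDs, 53565 had a symbol, and the rest held 0.0226% of counts.

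Groups and mice came from the sample titles, and the design text states that each mouse gave all populations. Deviations from the group means correlated between libraries of the same mouse with r from 0.0699 to 0.617 (9 pairs). TMM scaling and the filterByExpr filter (by group) preceded the fit with edgeR 4.0.16 in R 4.3.3 by the quasi-likelihood test (group and mouse as terms, 9 libraries, 15348 genes, 4 residual degrees of freedom, biological coefficient of variation 0.158, Benjamini-Hochberg adjustment). The SE was taken as |log2 fold change| over the root of the F statistic. The fit was tested on simulated data. P-values rest on 3 animals. Exon lengths and positions came from GENCODE annotation of GRCm38, promoter sequences from RefSeq.

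The members and the gene lists were chosen with earlier results of these data known. The text names the 8 members, up to 4 genes per list and comparison by p-value, the fixed genes Rfx5, Rfxank, Rfxap, Ctss, Lgmn, H2-Oa, H2-Ob, Nlrc5, Irf1 and Ifng (1 more is not reported here), the genes most like the members, and region neighbours; marker genes and others of the lists were named after their values were seen. Alternatives were DESeq2 1.42.0, no low-count filter, library size alone, no mouse block, the compared groups alone and leaving out each library.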

Additional observations from a re-analysis of the deposited data

How the results depend on the processing

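With the mouse block left out (pairing ignored), 1 of the 8 family members was called for Tc22 against Tc0 in place of 3, 1 for CoA against Tc0 in place of 4, and 3 for Tc22 against CoA in place of 5. In the same order the block changed the pathway list from 8, 20 and 28 calls to 1, 11 and 14, the class I list from 2, 4 and 5 to 1, 2 and 1, and all genes from 565, 3763 and 4913 to 120, 1462 and 2097. Without the low-count filter the class I list had 9 calls for CoA against Tc0, and all genes had 1275 for Tc22 against Tc0, where DESeq2 made 937. Leaving out 1 library gave, in the same order, 1 to 6, 1 to 4 and 2 to 6 calls for the family, 2 to 13, 9 to 25 and 14 to 30 for the pathway list, 1 to 6, 1 to 8 and 1 to 8 for the class I list, and 201 to 2669, 1160 to 4356 and 2185 to 5913 for all genes. For CoA against Tc0, H2-DMb1 ran from -0.0575 (Tc0 of mouse 725 omitted) to 0.541 (Tc0 of mouse 728 omitted), and Ciita from -0.01805 (Tc0 of mouse 715 omitted) to 1.57 (Tc0 of mouse 728 omitted), so both reversed once. The cause was not tested. The counts of Ciita and H2-Eb2 limit what their differences can show.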
